A study of Homo sapiens and Mus musculus with 47 samples.

Results

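The genes described here encode the pore-forming subunits of voltage-gated calcium and sodium channels, the calcium channel alpha2delta subunits, and the potassium channels with their auxiliary subunits. They were chosen by symbol and gene type alone, as protein-coding genes whose symbols begin with CACNA1, CACNA2, SCN (ending in A) or KCN. The rule found 119 genes of 57820 in each human table and 118 of 55401 in each mouse table. No measured value entered the choice.

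Voltage-gated channels open when the membrane potential changes. Calcium channels couple depolarization to calcium entry, sodium channels carry the rising phase of the action potential, and potassium channels repolarize the cell or set its resting potential. Neurons and muscle express large sets of these genes, many of which are very long genes with large introns, whereas fibroblasts and epithelial cells use fewer of them.

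Chrom-seq isolates RNA found near a histone mark. A protein domain that reads the mark brings an epitope array, to which the peroxidase APEX2 is recruited, and RNA in its vicinity is tagged with biotin and pulled down. Per the labels, all libraries used came from cells that expressed the constructs for 48 h and were given 500 µM biotin-aniline for 30 min and then 1 mM hydrogen peroxide for 1 min, controls included. In HCT116 (human colorectal cancer), NIH3T3 (mouse embryonic fibroblast) and Neuro-2a (mouse neuroblastoma) cells, the TAF3 reader, a PHD finger that binds H3K4me3, was compared with a control that had the epitope array and APEX2 but no reader. H3K4me3 marks the promoters of active genes. HEK293T cells (human embryonic kidney) gave RNA-seq libraries with CBX7, a reader of the repressive mark H3K27me3, or with a control, and with an antisense oligonucleotide (ASO) against the long noncoding RNA SETD5-AS1, LINC00641 or LINC00662, or the control ASO. The labels give the ASO libraries the same treatment, but the study's methods name no construct, biotin-aniline or peroxide step for ASO-treated cells. For the CBX7 RNA-seq, the study sets transfected cells against untreated HEK293T cells. Whether the control libraries used here are those untreated cells is not stated. Each group had 3 libraries, except 2 for the LINC00641 ASO, and no label said whether they came from separate cultures, so p-values measure the spread between these libraries only. A library held the RNA of many cells, and fewer cells with a transcript cannot be told apart from less of it per cell.

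Total counts per library ranged from 8258859 to 17558305. Per 1000000 counts, channel genes took 594 to 646 in HCT116 TAF3 libraries and 716 to 758 in controls, 1451 to 1573 and 1435 to 1563 in NIH3T3, and 2188 to 2281 and 2339 to 2625 in Neuro-2a. The lines carried most of their defining markers, with KRT8 at 1730 CPM (counts per 1000000) in HCT116 control libraries, Col1a2 at 902 CPM in NIH3T3 and Chgb at 2030 CPM in Neuro-2a. CDX1 and VIL1 were below 1 CPM in HCT116, and Tubb3 was at 0 in every Neuro-2a library. The Neuro-2a TAF3 library of replicate 1 stood apart, with a mean correlation of 0.9605 with the other TAF3 libraries against 0.9718 and 0.9724 for those, so the Neuro-2a and interaction calls are given with and without it. Gene lengths in the tables run from start to end, so reads in introns may have been counted, and 56 of the 118 mouse and 74 of the 119 human channel genes overlapped another listed gene, which makes their counts less certain. Overlaps are pointed out below for some of these genes only. Cacna1c, Kcnq5, CACNA1C and KCNAB2, for example, also overlap other listed genes.

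Because TAF3 reads a promoter mark, the 250 bases upstream of the annotated start are shown for Cacna1e and Kcnq5, which had the largest log2 fold changes in NIH3T3 among genes averaging 20 counts or more, and for Scn7a, the channel gene called in Neuro-2a. Capitals mark CG dinucleotides, coordinates are mm10 and sequences are given on the strand of the gene. The annotated start is the outermost end of the gene record and need not be the start used in these cells.
Cacna1e, minus strand, chr1:154884502-154884751: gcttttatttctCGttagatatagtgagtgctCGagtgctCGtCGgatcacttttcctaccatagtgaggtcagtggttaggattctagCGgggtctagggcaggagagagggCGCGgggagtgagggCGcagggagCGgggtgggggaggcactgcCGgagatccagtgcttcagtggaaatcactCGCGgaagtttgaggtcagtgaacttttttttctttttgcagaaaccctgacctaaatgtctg
Kcnq5, minus strand, chr1:21961943-21962192: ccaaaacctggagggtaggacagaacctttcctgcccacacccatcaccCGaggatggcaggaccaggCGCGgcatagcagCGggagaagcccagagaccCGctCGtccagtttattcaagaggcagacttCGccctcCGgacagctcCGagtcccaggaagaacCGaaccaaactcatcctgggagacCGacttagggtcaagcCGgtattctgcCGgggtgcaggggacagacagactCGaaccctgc
Scn7a, minus strand, chr2:66784915-66785164: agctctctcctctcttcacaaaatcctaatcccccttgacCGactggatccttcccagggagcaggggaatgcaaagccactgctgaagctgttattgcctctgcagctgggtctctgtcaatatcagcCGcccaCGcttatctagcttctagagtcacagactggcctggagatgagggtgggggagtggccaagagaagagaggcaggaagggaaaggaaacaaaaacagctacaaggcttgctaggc
These windows held 12 CG dinucleotides for Cacna1e, 14 for Kcnq5 and 3 for Scn7a, against a median of 8 over the 118 mouse channel genes and 8 over 21838 protein-coding genes. The 20 channel genes called higher with TAF3 in NIH3T3 had a median of 10.5 CG dinucleotides, and the 46 tested but not called had 8.5.

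The question put to the TAF3 libraries was which transcripts were captured above the reader-free control in each line. Called genes had an adjusted p below 0.05 (edgeR quasi-likelihood test, Benjamini-Hochberg over all genes tested) and differed by 0.75 or more on the log2 scale. In NIH3T3 cells the TAF3 libraries held more RNA of 20 channel genes and less of 1, of 67 tested. Of all 19220 genes tested there, 10.7% were called higher and 0.375% lower, so the 29.9% of channel genes called higher lay above that background. In HCT116, 2 channel genes were higher and 3 lower of 71 tested, against 3.34% and 3.28% of all genes. In Neuro-2a, 1 was higher and 0 lower of 62 tested, against 1.01% and 0.0235% of all genes. At an unadjusted p below 0.05 by edgeR in Neuro-2a, 8 channel genes had negative sign and 11 positive sign. The share of all genes at that p was not computed, so these counts have no background. At an adjusted p below 0.05 by edgeR, 1 channel gene had negative sign and stayed under the size threshold. DESeq2 also called 0 lower. The median log2 fold change of the tested channel genes was 0.79 in NIH3T3, -0.08 in HCT116 and 0.14 in Neuro-2a, where the medians of all genes were 0.02, -0.01 and 0.03. A gene with few counts passed the test only if 1 group was high. Counting only channel genes with a mean over 3 counts in the control libraries, 17 of 57 were higher in NIH3T3 (6.88% of all such genes) and 1 of 68 in HCT116 (2.35%), and the 1 called gene in Neuro-2a was not among the 57 that remained there (0.895%). With a control mean of 3 counts or less, 3 of 10 channel genes were higher in NIH3T3, below the 46.3% of all such genes. The same counts were 1 of 3 in HCT116 (32.8%) and 1 of 5 in Neuro-2a (3.36%). These counts were added after the data had been seen.

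**Figure D1:**
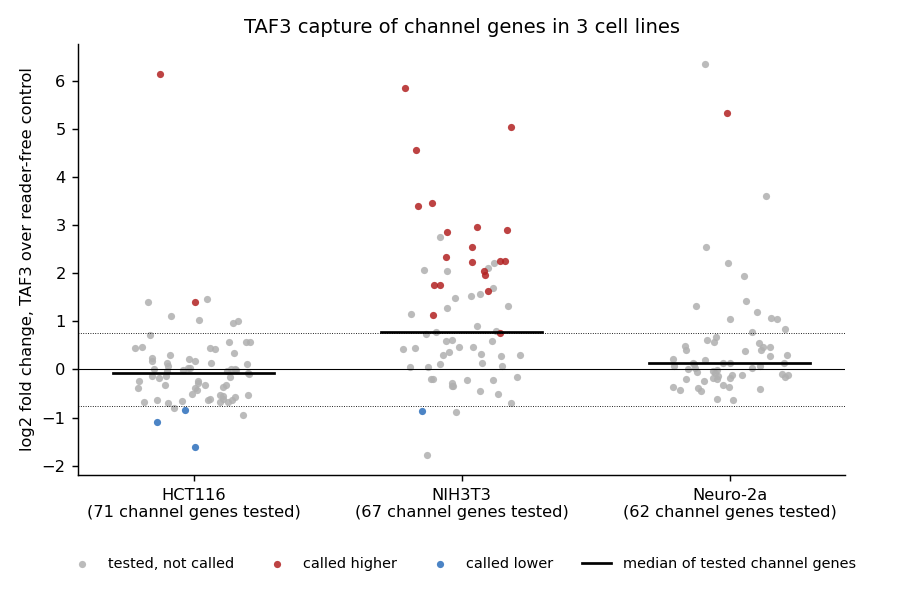
Log2 fold change of each tested channel gene, TAF3 over reader-free control, in the 3 cell lines (1 point per gene). Black bars are the medians of 0.79 in NIH3T3, -0.08 in HCT116 and 0.14 in Neuro-2a, dotted lines mark a log2 fold change of 0.75 in either direction, and red and blue points are genes called higher or lower.

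Among calcium channel genes in NIH3T3, 4 of 9 alpha1 subunit genes and 1 of 3 alpha2delta genes were higher with TAF3. Cacna1e, which encodes the pore of R-type calcium channels (ENSMUSG00000004110.17, mm10, chr1:154390731-154884501), had 3, 6 and 4 counts in the control libraries and 231, 264 and 296 in the TAF3 libraries. The groups did not overlap, which the naming rule required, and the lowest TAF3 library was far above the highest control. Its level was 0.266 ± 0.107 CPM in controls and 15.6 ± 1.14 CPM with TAF3 (SD, n = 3 libraries each), a log2 fold change of 5.85 (SE 0.29, adjusted p = 3.37e-14 by edgeR). Cacna1i, a low-voltage-activated T-type channel, had 30, 47 and 55 counts in controls and 206, 205 and 238 with TAF3 (log2 fold change 2.26, SE 0.22, adjusted p = 1.66e-08 by edgeR). The L-type genes Cacna1s (log2 fold change 2.91, adjusted p = 0.00129) and Cacna1d (2.23, adjusted p = 0.00481) were also higher by edgeR, each from 12 counts or fewer per control library. Cacna2d3, an alpha2delta subunit gene of 817 kb, rose from 2, 5 and 12 counts to 70, 76 and 72. It overlaps 7 other listed genes and Cacna1d overlaps 8, so their reads may be shared. Cacna1c, the L-type channel gene with the most counts in NIH3T3, had 18757, 16054 and 16191 counts in controls and 13386, 13630 and 15578 with TAF3. All of its TAF3 libraries were below all controls, but its log2 fold change of -0.29 (SE 0.05, adjusted p = 0.000252 by edgeR) was under the size threshold.

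Potassium channel genes made up most of the others. Of 13 tested Kv pore genes, 6 were higher. Of the other potassium channel genes, 3 of 7 in the Slo and small-conductance families, 3 of 12 auxiliary genes, 1 of 5 inward rectifiers and 1 of 6 two-pore-domain channels were higher. The 5 tested EAG-type genes had a median log2 fold change of 0.90 and did not pass the test. Kcnq5, which encodes a subunit of the M-current, a slow current that limits repetitive firing (ENSMUSG00000028033.16, mm10, chr1:21398403-21961942), had 4, 0 and 9 counts in controls and 97, 101 and 125 with TAF3 (log2 fold change 4.57, SE 0.46, adjusted p = 3.21e-08 by edgeR). The libraries of the groups did not overlap, which the naming rule required. Kcnq1, the cardiac and epithelial channel of this family, rose from 161, 164 and 167 counts to 574, 447 and 543, but it overlaps 12 other listed genes, among them the antisense RNA Kcnq1ot1, so its reads may be shared with them.

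Kcnma1, the pore of the large-conductance calcium-activated channel, went from 74, 65 and 58 counts to 274, 208 and 305, and the beta subunit gene Kcnmb2 from 2, 4 and 1 to 33, 17 and 29. Kcnn3, a small-conductance calcium-activated channel gene, had 4, 2 and 1 counts in controls and 19, 13 and 11 with TAF3 (log2 fold change 2.55, SE 0.89, adjusted p = 0.038 by edgeR), a call that was lost when any TAF3 library or control replicate 2 or 3 was left out, with adjusted p up to 0.146. Kcnu1, a relative of Kcnma1 expressed in sperm, rose from 50, 49 and 52 counts to 197, 174 and 150. Kcnj12, a strong inward rectifier, rose from 18, 6 and 24 counts to 134, 127 and 122, and Kcnb2, a delayed rectifier, from 5, 3 and 6 to 33, 24 and 50. Kcnip4, an auxiliary subunit of Kv4 channels and the channel gene of longest span in the mouse tables at 1140 kb, rose from 22, 24 and 41 counts to 161, 131 and 130. It overlaps 31 other listed genes, 24 of them on its own strand, so its reads may be shared with them. Kcnk2, a mechanically gated leak channel, was already abundant and went from 261, 249 and 271 counts to 539, 573 and 633 (log2 fold change 1.13, SE 0.11, adjusted p = 1.66e-08 by edgeR). Lack of overlap between groups was a condition for naming genes by fold change, so it is not a result for those genes. Kcnmb2 and Kcnn3 passed the count filter only through their TAF3 libraries.

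The sodium channel gene Scn8a, whose channel sits at the axon initial segment, had 0, 0 and 1 counts in NIH3T3 controls and 6, 20 and 20 with TAF3. The ratio of summed counts was 45.0, with an exact 95% counting interval from 7.69 to 1820.0 that covers counting error only (adjusted p = 0.00279 by edgeR). Scn8a passed the count filter only through its TAF3 libraries, so this p-value is not independent support. It was the only sodium channel gene called among 7 tested.

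Per kilobase of span, the 5 channel genes with the most RNA in NIH3T3 control libraries were Kcnn4 (2.73 CPM per kb), Cacna1c (1.69), Kcna4 (1.55), Kcnj14 (1.03) and Kcne4 (0.702). None of these was called, and their log2 fold changes were 0.08, -0.29, 0.05, -0.52 and 0.43. The 20 genes called higher with TAF3 ranged in controls from 0.000114 CPM per kb for Scn8a to 0.42 for Kcnab3, with Cacna1e at 0.000539. That they lie below the 5 genes above follows from how those 5 were picked. Over all 6 libraries, TAF3 included, the median of the mean counts was 47.8 for the 20 and 12.3 for the other tested channel genes. The summed levels of markers of other cell types were also higher with TAF3 in NIH3T3. The 6 colon epithelium markers summed to 2.56 to 4.26 CPM in controls and 6.24 to 9.23 with TAF3, and the 4 glia and muscle markers to 1.94 to 4.21 and 6.85 to 10 CPM. Single markers differed, with mean levels of 1.17 CPM in controls and 5.16 with TAF3 for Mbp, 1.55 and 3.69 for Krt8, 1.71 and 1.64 for Vil1, 0.813 and 0.697 for Myh3 and 0.057 and 0.0202 for Epcam. None of those genes was at 0 in all libraries. Of 10 neuroblast markers, which summed to 19.7 to 20.3 CPM in controls and 20.7 to 23.5 with TAF3, Tubb3 and Hand2 were at 0 in every NIH3T3 library. The part of these genes in the channel gene result was not tested.

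By span, the share of tested channel genes called higher in NIH3T3 was 1 of 11 under 20 kb, 5 of 22 from 20 to 100 kb, 5 of 15 from 100 to 300 kb and 9 of 19 at 300 kb or more. The same shares over tested protein-coding genes were 5.17%, 8.32%, 15.1% and 29.4%, so long genes of all kinds were called higher more often, and the 47.4% of channel genes at 300 kb or more stood beside 29.4%. Median log2 fold changes of the channel genes by bin were 0.12, 0.52, 1.33 and 1.64, against 0.01, -0.03, -0.04 and 0.38 for protein-coding genes. Across the 67 tested channel genes, log10 span and log2 fold change had Pearson's r of 0.37 and Spearman's rho of 0.353, where 14349 protein-coding genes had 0.12 and -0.0112. These points share the same 6 libraries and differ in depth, and genes are not independent replicates. The corresponding r was 0.17 in HCT116 over 71 genes and 0.07 in Neuro-2a over 62, with rho of 0.209 and -0.107. In HCT116, 0 genes were higher and 0 lower of 14 under 20 kb, and 1 and 1 of 25 from 20 to 100 kb. From 100 to 300 kb there were 1 and 1 of 17, and at 300 kb or more 0 and 1 of 15. The shares of protein-coding genes called higher in these bins were 3.02%, 2.11%, 3.39% and 8.5%. Protein-coding genes called lower numbered 173 of 4936, 134 of 6267, 38 of 2272 and 8 of 565. By the same bins in Neuro-2a, 0 of 11, 0 of 24, 1 of 12 and 0 of 15 channel genes were higher. The protein-coding shares there were 0.367%, 0.917%, 2.17% and 4.52%.

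**Figure D2:**
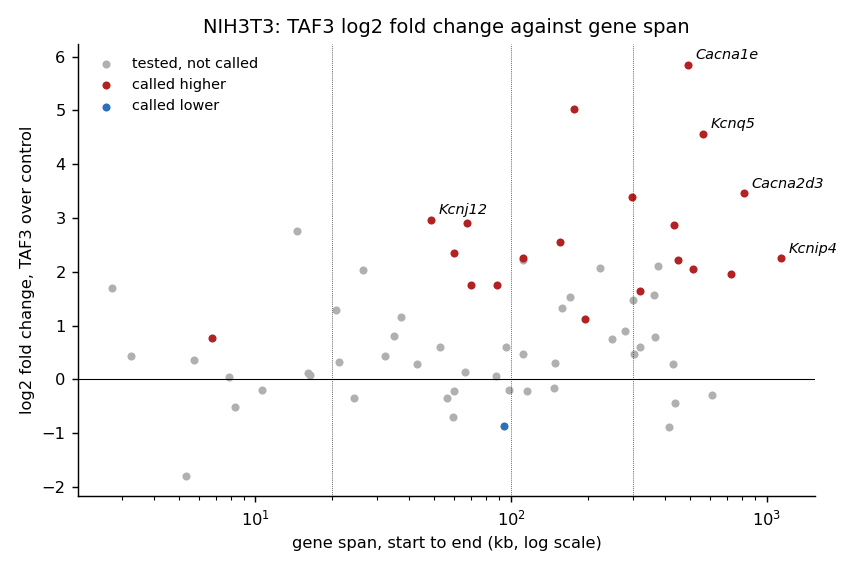
Log2 fold change of TAF3 over control in NIH3T3 against gene span for 67 tested channel genes (1 point per gene, log axis, dotted lines at 20, 100 and 300 kb). Of the 19 genes at 300 kb or more, 9 were called higher, with Cacna1e highest at 5.85.

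In HCT116 most of the 5 called genes had few counts. SCN3A, a sodium channel of developing brain (hg19, chr2:165944032-166060577), had 0 counts in all 3 controls and 8, 9 and 8 with TAF3, which is at least 9.09-fold higher against a floor of 3 counts over the control group (adjusted p = 0.000181 by edgeR). It overlaps 2 other listed genes. SCN3A passed the count filter only through its TAF3 libraries, so its p-value is not independent support. KCNK3, an acid-sensitive leak channel also called TASK-1, rose from 5, 10 and 12 counts to 23, 21 and 22 (log2 fold change 1.41, SE 0.43, adjusted p = 0.00882 by edgeR), and without control replicate 1 its adjusted p was 0.0518. KCNN3 (hg19, chr1:154669931-154842756) fell from 73, 48 and 45 counts to 23, 16 and 32 (log2 fold change -1.09, SE 0.29, adjusted p = 0.00237 by edgeR). It is the only symbol called with TAF3 in both species, and the direction was opposite to that of Kcnn3 in NIH3T3. KCNH8, an EAG-type channel, fell from 11, 15 and 15 counts to 6, 3 and 3, with an adjusted p of 0.0563 by DESeq2 and up to 0.086 when 1 library was left out. CACNA1G, a T-type calcium channel gene, fell from 140, 131 and 103 counts to 65, 64 and 62. Without control replicate 1 its log2 fold change of -0.72 was under the size threshold. CACNA1E had 3, 9 and 3 counts in controls and 10, 8 and 12 with TAF3, so the groups overlapped (log2 fold change 1.12, SE 0.63, adjusted p = 0.169 by edgeR). KCNIP4, the channel gene of longest span in the human tables at 1220 kb, had 2, 3 and 1 counts in controls and 9, 4 and 3 with TAF3 (log2 fold change 1.47, SE 0.83, adjusted p = 0.174 by edgeR).

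Per kilobase, KCNN4 led in HCT116 controls at 4.87 CPM per kb, and KCNH3 (2.54), KCNK6 (1.56) and KCNG1 (1.52) were among the next. KCNH3 overlaps the protein-coding gene MCRS1, so its reads may be shared with it. KCNN4, an intermediate-conductance calcium-activated channel of epithelia and lymphocytes, had 1207, 1281 and 1140 counts in controls and 748, 703 and 619 with TAF3. Its groups did not overlap, yet the log2 fold change of -0.69 (SE 0.07, adjusted p = 1.13e-10 by edgeR) stayed under the size threshold.

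KCNK3 and its mouse counterpart Kcnk3 had letters of the RE1 element in the upstream window. RE1 is the site bound by REST, a repressor of neuronal genes outside neurons. Searching for TTCAGCACC, the left part of the element, on both strands found it in 5 of 119 human channel genes (4.2%), against 0.32% of 20310 protein-coding promoters, and in 2 of 118 mouse channel genes (1.69%), against 0.298% of 21838. Human matches included KCNAB2, KCNK3, KCNS2 and KCNH6, and mouse matches were Kcnk3 and Kcnh6. Both mouse matches were tested and not called in either line, and 0 of the 20 genes called higher in NIH3T3 had one. In HCT116 the matches were in 1 of 2 genes called higher and 2 of 66 tested but not called. The right part of the element was not searched for, so the matches are not shown to be REST sites. Both windows are shown with the matched letters, which lie on the opposite strand, in capitals.
KCNK3, hg19, plus strand, chr2:26915369-26915618: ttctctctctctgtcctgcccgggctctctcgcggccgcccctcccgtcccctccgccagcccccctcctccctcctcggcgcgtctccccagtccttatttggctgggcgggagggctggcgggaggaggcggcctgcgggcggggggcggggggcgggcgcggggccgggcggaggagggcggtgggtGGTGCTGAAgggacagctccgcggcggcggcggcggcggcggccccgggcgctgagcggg
Kcnk3, mm10, plus strand, chr5:30587920-30588169: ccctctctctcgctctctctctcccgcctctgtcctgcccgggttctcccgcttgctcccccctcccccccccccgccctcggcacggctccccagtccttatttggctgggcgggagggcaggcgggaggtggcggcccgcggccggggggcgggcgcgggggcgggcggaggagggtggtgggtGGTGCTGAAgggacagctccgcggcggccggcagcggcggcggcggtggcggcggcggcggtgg

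In Neuro-2a, Scn7a was the only channel gene called. It encodes a sodium channel of glia and sensory circuits that responds to sodium concentration (ENSMUSG00000034810.7, mm10, chr2:66673425-66784914). It had 3, 0 and 0 counts in controls and 47, 40 and 39 with TAF3. The ratio of summed counts was 44.7, with an exact 95% counting interval from 15.0 to 220.0 (adjusted p = 0.00763 by edgeR). Scn7a passed the count filter only through its TAF3 libraries, so this p-value is not independent support. Without control replicate 2 the adjusted p was 0.0529. In NIH3T3, Scn7a had 8, 2 and 12 counts in controls and 8, 15 and 8 with TAF3. Cacna1e had 8, 6 and 10 counts in controls and 30, 5 and 21 with TAF3, with overlapping groups (log2 fold change 1.31, SE 0.66, adjusted p = 0.363 by edgeR). Kcnn3 had 473, 483 and 392 counts in controls and 354, 470 and 470 with TAF3, also overlapping. Kcnip4 had 7, 7 and 8 and then 12, 6 and 14.

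Without the TAF3 library of replicate 1, 5 channel genes of 62 tested were called higher, against 3.34% of all 16940 genes, and the median log2 fold change of the channel genes was 0.0975. Scn7a kept its call (log2 fold change 5.19, SE 0.73, adjusted p = 2.22e-06 by edgeR), and Kcnq1 (1.12), Kcnt1 (3.66), Cacna1h (0.78) and Kcnq3 (2.72) joined it. In all 6 libraries Kcnq1 had 36, 43 and 31 counts in controls and 61, 76 and 80 with TAF3, and Kcnt1, a sodium-activated channel gene, had 0, 3 and 1 and then 15, 17 and 19. The fit of all 6 libraries left both above the threshold for p, at adjusted p = 0.0754 for Kcnq1 and 0.0727 for Kcnt1 by edgeR. Kcnt1 and Kcnq3 passed the count filter only through their TAF3 libraries. Among the most abundant channel genes per kilobase in Neuro-2a controls were Kcnh2 (3.52 CPM per kb), Kcnk3 (1.55) and Scn8a (1.41). None of these was called with TAF3, with log2 fold changes of 0.14, -0.07 and -0.20. Without the TAF3 library of replicate 1 these were -0.04, -0.52 and -0.21, and that of Kcnk3 (SE 0.0957, adjusted p = 0.000158 by edgeR) stayed under the size threshold.

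Whether the TAF3 effect differed between the mouse lines was tested with an interaction term over 12 libraries. It was larger in NIH3T3 for 11 channel genes and larger in Neuro-2a for 1 of 80 tested, against 2.33% and 0.718% of all 19509 genes. Among the 11 were Scn8a, Kcnq5, Cacna1e, Kcnmb2, Kcnj12, Kcnn3, Kcnma1, Cacna1i, Kcnu1 and Kcnab1, and the 1 was Scn7a. Without TAF3 replicate 1 of Neuro-2a, 12 were larger in NIH3T3 and 1 in Neuro-2a. Several of them had high counts in Neuro-2a controls. Scn8a had 3104, 2975 and 2608 counts there and 2239, 2324 and 2558 with TAF3. Kcnq5 had 1328, 1305 and 1080 and then 611, 1027 and 946. Cacna1e was low in the controls of both lines. The call for Kcnu1 (adjusted p = 0.0453 by edgeR) was lost when any 1 of 9 libraries was left out, all except TAF3 replicate 3 of NIH3T3 and TAF3 replicates 1 and 2 of Neuro-2a. The call for Scn7a was lost without control replicate 3 of NIH3T3 or control replicate 2 or 3 of Neuro-2a. Kcnab1, a beta subunit of Kv1 channels, differed in another way, at 1210, 1200 and 1066 counts in NIH3T3 controls and 1416, 1459 and 1432 with TAF3, and 3780, 3790 and 3461 in Neuro-2a controls and 1722, 2523 and 2502 with TAF3.

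**Figure D3:**
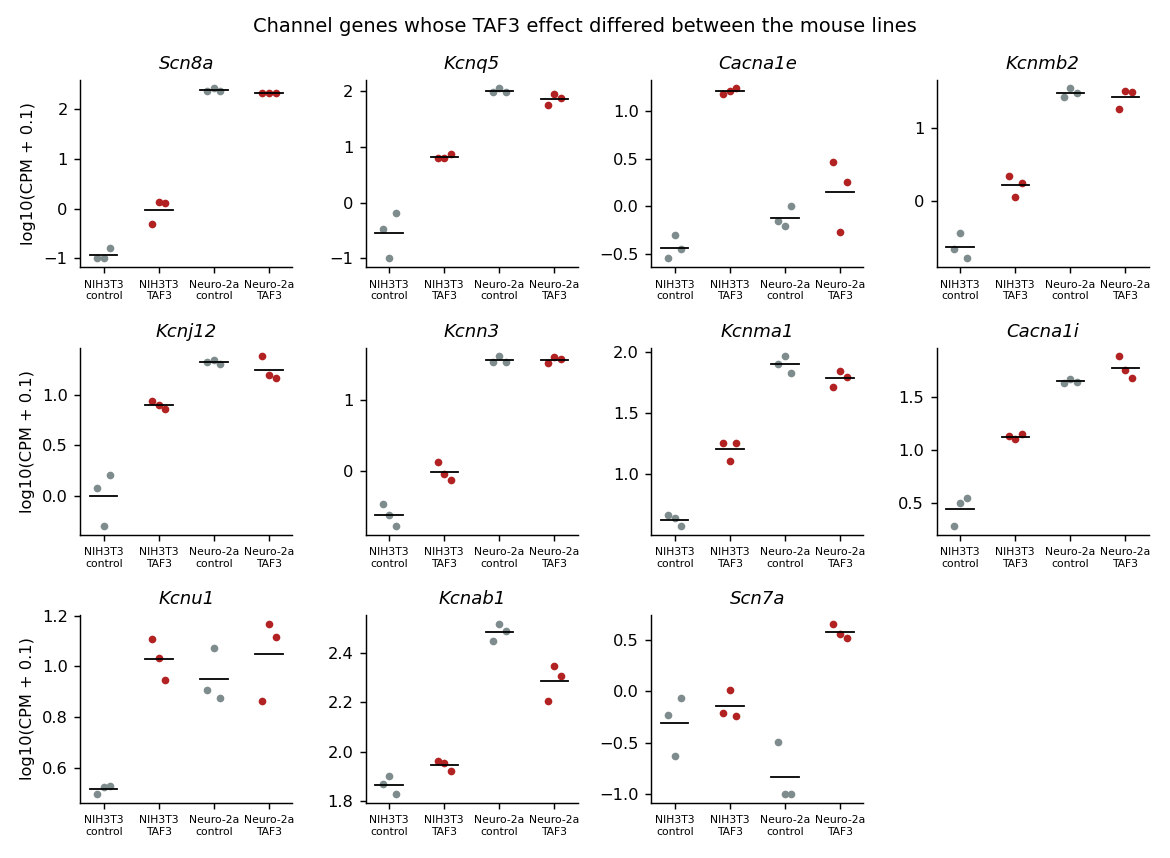
Level of 11 channel genes whose TAF3 effect differed between NIH3T3 and Neuro-2a, as log10(CPM + 0.1) in each of 12 libraries (points) with the mean of each group (bar). Scn8a and Kcnq5 are highest in Neuro-2a with and without the reader and rise with TAF3 in NIH3T3, while Scn7a rises with TAF3 in Neuro-2a, to 47, 40 and 39 counts, and was not called in NIH3T3.

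The control libraries of the lines were also compared directly, to give the level of each gene without the reader. Of 69 tested channel genes, 37 were higher in Neuro-2a and 17 in NIH3T3, against 25.2% and 26.5% of all 18433 genes. All 7 sodium channel genes called were higher in Neuro-2a, of 8 tested. Scn9a, a peripheral nerve channel, had 0 counts in every NIH3T3 control and 1283, 997 and 1044 in Neuro-2a, at least 1460-fold higher against a floor of 3 counts over the NIH3T3 group. Cacna1b, the N-type calcium channel of presynaptic terminals, had 6, 2 and 4 counts in NIH3T3 and 2146, 2013 and 1925 in Neuro-2a (log2 fold change 9.34, SE 0.15, adjusted p = 4.21e-25 by edgeR). For Scn8a, with 1 count in NIH3T3, the ratio of summed counts had a 95% interval with a lower bound of 2050.

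Other genes were higher in NIH3T3. Cacna2d1, an alpha2delta subunit gene, had 1952, 1909 and 1837 counts in NIH3T3 controls and 6, 2 and 2 in Neuro-2a, and Kcnk10, a leak channel gene, had 1060, 770 and 912 and 2, 2 and 1. Kcnk2 had 261, 249 and 271 and then 1, 0 and 1, a ratio of summed counts of 296.0 in favour of NIH3T3 with an exact 95% counting interval from 81.7 to 2450.0. Kcnn4 had 802, 712 and 703 and then 4, 2 and 2. The libraries of the lines did not overlap for any of these genes, which the rule for naming them required. Of the 29 tested genes in a list of channel partners and regulators, 17 were higher in Neuro-2a and 4 in NIH3T3. Rest, the repressor that binds RE1, was higher in NIH3T3 at 219 ± 5.24 CPM against 27.6 ± 1.28 in Neuro-2a (SD, n = 3 libraries each). Cacng3, listed by its name among calcium channel gamma subunits, at 0.0197 ± 0.0341 CPM in NIH3T3 and 120 ± 5.32 in Neuro-2a, and Dpp6, a partner of Kv4 channels, at 0.281 ± 0.269 and 140 ± 9.15, were higher in Neuro-2a. With TAF3 in NIH3T3, Hcn4 (log2 fold change 3.71, adjusted p = 0.00011 by edgeR) and Dpp6 (2.26, adjusted p = 0.0311) were the 2 partners called of 23 tested, against 10.7% of all genes called higher. The interaction was larger in NIH3T3 for both, the only 2 of 30 tested partners, against 2.33% of all genes.

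**Figure D4:**
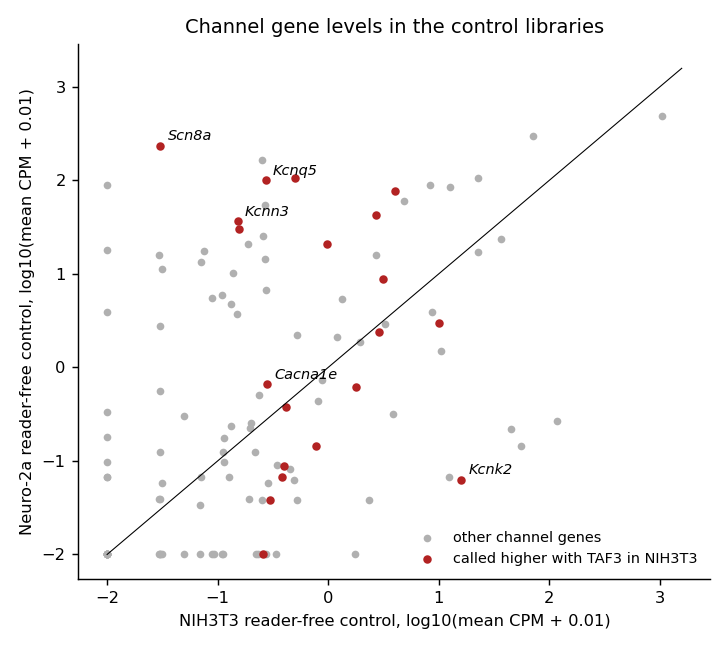
Level of each channel gene in the reader-free controls of NIH3T3 (x) and Neuro-2a (y), as log10(mean CPM + 0.01), with genes called higher with TAF3 in NIH3T3 in red and a line of equal level. Scn8a, Kcnq5 and Kcnn3 lie above the line, in favour of Neuro-2a, and Kcnk2 below it.

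In HEK293T RNA-seq, libraries with the CBX7 reader were compared with the control libraries. If the controls were untreated cells, effects of the reader and of transfection cannot be told apart. Of 80 tested channel genes, 3 were higher and 1 lower, against 4.17% and 3.48% of all 18204 genes, so the channel genes were called about as often as the background. KCNAB2, a beta subunit of Kv1 channels, had 413, 483 and 557 counts in controls and 177, 208 and 221 with CBX7 (log2 fold change -0.77, SE 0.10, adjusted p = 4.29e-05 by edgeR). The 3 higher genes had few counts and passed the count filter only through the CBX7 libraries. The EAG-type genes KCNH8 and KCNH1 had 0, 1 and 3 and then 4, 8 and 8 counts, and 2, 1 and 1 and then 3, 7 and 6. KCNJ9, a G-protein-gated inward rectifier, had 2, 1 and 1 and then 5, 4 and 10. Without CBX7 replicate 3 none of these 3 remained called, and without control replicate 3 or CBX7 replicate 2 only 1 channel gene was called higher. Lower calls numbered 2 without control replicate 2, CBX7 replicate 2 or CBX7 replicate 3. KCNAB2 fell below the size threshold without control replicate 3 (log2 fold change -0.74) or CBX7 replicate 2 (-0.71).

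The ASO libraries were compared with the control ASO libraries, and all 3 comparisons share those controls. Each target was reduced. SETD5-AS1 was at 49.7, 49.8 and 51.2 CPM with the control ASO and 4.91, 4.44 and 4.15 with its own, LINC00641 at 40.5, 35.9 and 39.6 against 0.909 and 1.95, and LINC00662 at 11.7, 13.4 and 12.7 against 2, 1.25 and 1.55. Per 1000000 counts, channel genes took 396 to 448 in control ASO libraries, 674 to 688 when SETD5-AS1 was targeted, 572 and 576 for LINC00641 and 601 to 612 for LINC00662. In the other HEK293T table, RNA-seq control libraries gave 608 to 696. The tables were made separately, so levels set across them are descriptions.

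For SETD5-AS1, 25 channel genes were higher and 7 lower of 85 tested, against 12.9% and 11.5% of all genes, and 4 were lower without replicate 1 of either group. For LINC00641, 15 were higher and 11 lower of 83 (11% and 11.5% of all genes), and the number of lower calls was 4 to 7 when any library other than control replicate 3 was left out. Several of these 11 averaged 3 counts or fewer with the ASO and passed the count filter only through the control ASO libraries. Their p-values are thus not independent support. KCNH8, for example, had 9, 6 and 5 counts with the control ASO and 1 and 2 with the LINC00641 ASO, and KCNJ9 had 5, 2 and 8 and then 0 and 1. For LINC00662, 20 were higher and 6 lower of 82 (11.6% and 13.3% of all genes). CACNA1B had 50, 58 and 49 counts with the control ASO and 245, 283 and 254 with the SETD5-AS1 ASO (log2 fold change 2.23, SE 0.14, adjusted p = 8.69e-10 by edgeR). With the LINC00641 ASO it had 107 and 127 counts (log2 fold change 0.98, SE 0.19, adjusted p = 0.000263 by edgeR), and with the LINC00662 ASO 187, 208 and 186 (1.66, SE 0.16, adjusted p = 1.5e-09 by edgeR). In the other table its control level was 10.7 CPM, against 4.18 CPM with the control ASO. KCND3, a Kv4 channel of heart and brain, and KCNA2, an axonal Kv1 channel, were higher in each comparison. KCND3 had 12, 12 and 14 control counts, and 38, 47 and 45, then 35 and 42, then 72, 72 and 59 when SETD5-AS1, LINC00641 and LINC00662 were targeted. KCNA2 had 30, 18 and 26 and then 81, 80 and 83, 53 and 61, and 88, 112 and 91.

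Other genes were not called in every comparison. CACNA1C, an L-type channel, was at 5.94 CPM with the control ASO, and was called higher for SETD5-AS1 (15.2 CPM) and LINC00641 (11.9) but stood at 3.75 CPM for LINC00662, where its log2 fold change was -0.70. Without control ASO replicate 2 its log2 fold change for LINC00641 was 0.69, under the size threshold. These comparisons were not tested against each other. KCNN2, a small-conductance calcium-activated channel gene, had 4, 8 and 12 counts with the control ASO and 60, 54 and 28 with the LINC00662 ASO (log2 fold change 2.31, SE 0.38, adjusted p = 1.19e-05 by edgeR). KCNJ2, an inward rectifier that sets the resting potential, was lower in each comparison, at 40, 42 and 29 counts in control ASO libraries, 6, 12 and 7 for SETD5-AS1, 11 and 33 for LINC00641 and 8, 20 and 20 for LINC00662. For the LINC00641 ASO its raw counts overlapped those of the controls, while its TMM-scaled levels did not, at 0.816 and 2.30 CPM against 2.97, 3.50 and 2.52. That call (adjusted p = 0.0405 by edgeR) was lost with DESeq2 (adjusted p = 0.0787), with library size alone (0.0584) and without control ASO replicate 1 (0.0672), control ASO replicate 2 (0.0942) or LINC00641 ASO replicate 2 (0.449). KCNJ8, a pore subunit of ATP-sensitive channels, was at 27.5 CPM with the control ASO, 16.7, 16.1 and 17.9 with the others and 12.3 in the controls of the other table. Of 28 tested partner genes, 7, 5 and 7 were higher and 1, 0 and 1 lower in the comparisons for SETD5-AS1, LINC00641 and LINC00662. Of all genes, 12.9%, 11% and 11.6% were higher and 11.5%, 11.5% and 13.3% lower. NALCN, a sodium leak channel gene, was higher in each, with log2 fold changes of 1.22, 1.16 and 1.38.

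**Figure D5:**
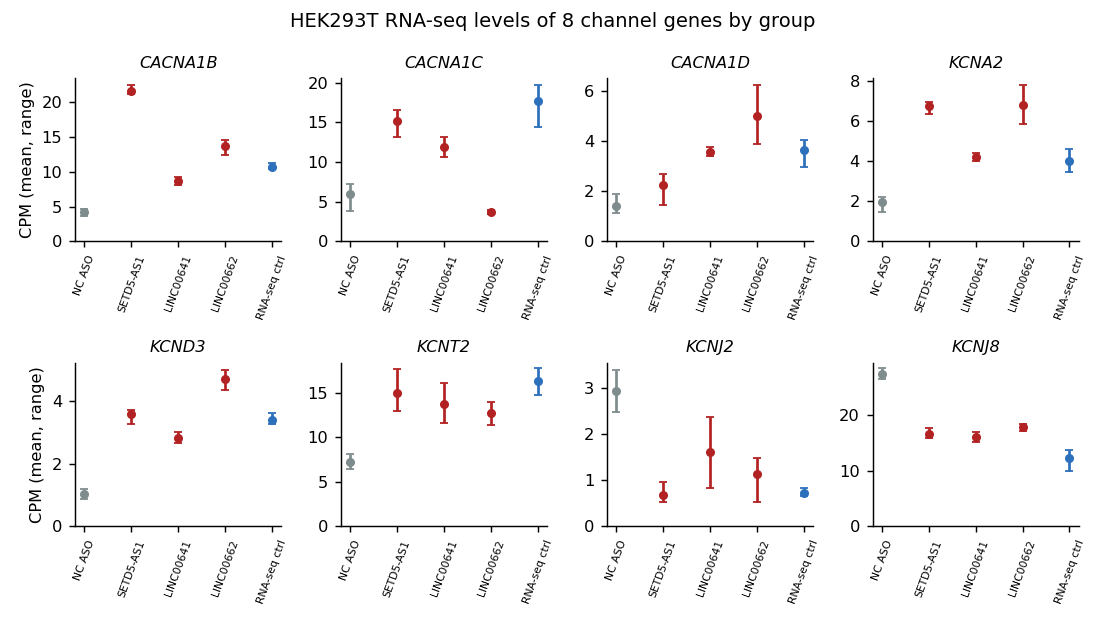
Level of 8 channel genes in HEK293T RNA-seq by group, as mean CPM with the range over libraries (bars), for the control ASO (grey), the 3 targeting ASOs (red) and the RNA-seq controls of the other table (blue). CACNA1B was at 4.18 CPM with the control ASO and 21.5 with the SETD5-AS1 ASO, and KCNJ8 was highest with the control ASO at 27.5 CPM.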

How the data were processed

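The authors deposited raw read counts for every annotated gene. Per the labels and the study's methods, reads passed FastQC 0.11.8, fastp 0.23.1, HISAT2 2.1.0 (hg19, mm10) and featureCounts 2.0.1 with GENCODE genes; strand and multi-mapping settings are not given in the sources used here. Of 47 samples, 35 libraries in 5 tables were used. The HEK293T Chrom-seq table was not used, because 6 of its columns carry no gene names and 6 others match no listed sample, so the planned TAF3 comparison in HEK293T was not run. Groups came from sample titles. Genes with a summed count above 18 over 6 libraries (15 over 5, 36 over 12) were tested with edgeR 4.0.16 in R 4.3.3, with TMM scaling, in the libraries of each comparison alone. CPM are scaled by TMM, except marker, target and ASO levels, which are per 1000000 total counts. DESeq2, other scalings and filters, a replicate block and leaving out each library were alternatives. Named genes are all called channel genes where 12 or fewer were called, otherwise the 10 higher and 4 lower with the largest fold change (averaging 20 counts or more, groups not overlapping), and genes fixed by label, level or span; further genes were picked with their values known. Some genes that these rules name are not reported here. The members and lists were chosen with earlier results of these data known. The procedure was tested on simulated data. Upstream bases were read from GRCm38 and GRCh37, whose chromosomes hold every gene end in the tables.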

Additional observations from a re-analysis of the deposited data

Results flagged for a closer look

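The TAF3 effect differed between NIH3T3 and Neuro-2a for 12 channel genes, 11 of them named here, by the interaction term (edgeR, adjusted p below 0.05 over all genes). The difference in log2 fold change, Neuro-2a minus NIH3T3, was -5.20 for Scn8a, -5.01 for Kcnq5, -4.55 for Cacna1e, -3.55 for Kcnmb2 and -3.17 for Kcnj12. It was -2.51 for Kcnn3, -2.34 for Kcnma1, -1.81 for Cacna1i, -1.39 for Kcnu1 and -0.92 for Kcnab1. It was 4.89 for Scn7a. The values for Scn8a and Scn7a rest on groups with 3 counts or fewer and depend on how low counts are handled.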

How the results depend on the processing

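Of 232 counts of channel genes under other settings, 195 stayed within 1.5 times the reported count, and of 1200 values of named genes 1139 kept direction and call. In Neuro-2a, the 1 gene called higher became 5 with DESeq2, 6 with no filter, 2 with filterByExpr and 0 with a filter on the control libraries alone, which was added after seeing the data and left 1 in HCT116. The interaction larger in Neuro-2a was called for 2 genes with DESeq2, 3 with no filter and 2 with the replicate block. For CBX7, lower calls were 0 with library size alone and 2 with no filter, and higher calls were 1 with filterByExpr. Lower calls with filterByExpr were 3 for SETD5-AS1, 6 for LINC00641 and 3 for LINC00662, and for LINC00641 they were 6 with DESeq2 and 5 with the replicate block. The cause was not tested. Same-numbered libraries deviated together by correlations from -0.042 to 0.082. With so few libraries a group, these values cannot tell whether same-numbered libraries were prepared together. With the block the calls of Kcnn3 in NIH3T3 (adjusted p = 0.0686 by edgeR) and KCNJ2 for LINC00641 (0.0644) were lost. Leaving out 1 library gave 0 to 5 genes higher in Neuro-2a, 0 to 2 for the interaction larger in Neuro-2a, 0 to 3 higher and 0 to 2 lower for CBX7, and 4 to 8 and 4 to 10 lower for SETD5-AS1 and LINC00641. Signs turned for some genes that were not called. With 1 library left out, log2 fold changes ran from -0.1574 to 0.0265 for KCNH3, -0.01605 to 0.159 for Kcna4, -0.05714 to 0.121 for Kcnn3 in Neuro-2a, -0.03752 to 0.2471 for Kcnh2 and -0.517 to 0.1268 for Kcnk3. The planned TAF3 comparison in HEK293T was not run. With 3 libraries a group, channel genes with few counts carry wide errors, and genes below the filter were not tested.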
